A study of Mus musculus with 9 samples.

Results

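RNA levels of 54 genes for enzymes that supply acetyl-CoA or add and remove acetyl and methyl groups on histones were measured in retinal explants. The 54 genes were taken by symbol from a table of 55487 genes and fall into 6 classes. These are 3 enzymes of acetyl-CoA supply, 10 acetyltransferases, 11 zinc-dependent deacetylases, 6 sirtuins, 15 lysine methyltransferases with their polycomb partners and 9 lysine demethylases. All 54 passed the filter on low counts, as did 21049 genes in all. Retinas came from C57Bl/6J mice, a wild-type strain, on postnatal day 28, freed of the retinal pigment epithelium. The explants were kept for 48 h in Neurobasal-A medium with 5 mM glucose, and then for 1 h in Krebs' Ringer medium. Explants of the 4 2-DG libraries also received 20 mM 2-deoxy-D-glucose, a glucose analogue that blocks glycolysis after its uptake, and those of the 5 control libraries did not. The labels call the libraries biological replicates without naming the animals, so p-values here measure the spread between libraries. The comparison asked which of these enzymes differ in RNA level when glycolysis is inhibited.

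Histone acetyltransferases transfer the acetyl group of acetyl-CoA to lysines, which loosens chromatin and creates binding sites for bromodomain proteins. In the nucleus and cytosol this acetyl-CoA comes from citrate through ATP-citrate lyase and from acetate through acetyl-CoA synthetase, and citrate can derive from glucose. Deacetylases remove the mark, with zinc in the catalytic centre or, in sirtuins, with NAD as a substrate. Methyltransferases use S-adenosylmethionine, and most lysine demethylases use 2-oxoglutarate and oxygen.

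The libraries held 11317734 to 51802249 estimated counts. Over the genes tested, log2 CPM (counts scaled to a common library size by TMM, the trimmed-mean method of edgeR) had a Pearson's r of 0.877 to 0.967 within the control group and 0.897 to 0.977 within the 2-DG group. Across the groups r was 0.868 to 0.968. Retinal markers were present in every library, and the libraries differed in them. The 12 rod markers summed to 47800 CPM in control 2 and to 5850 to 18900 CPM in the others. The 9 bipolar cell markers summed to 243 CPM in control 5 and 409 CPM in 2-DG 4, against 727 to 3340 CPM in the other libraries. The 10 markers of vessels and pericytes summed to 2260 CPM and 2830 CPM in those same libraries, against 444 to 1290 CPM in the others. The 11 markers of Muller glia summed to 2130 to 7590 CPM in control and 1220 to 4120 CPM in 2-DG libraries, with 4 lower and 1 higher in 2-DG at an unadjusted p under 0.05. The 9 markers of the retinal pigment epithelium summed to 206 CPM in 2-DG 3 and 34.4 CPM in 2-DG 4. They summed to 4.24 and 6.6 CPM in 2-DG 1 and 2-DG 2, below the 10.1 to 20.9 CPM of the controls. Of the 6 tested, 3 were higher in 2-DG at the same threshold. So was 1 marker of cones and 1 of vessels and pericytes. The part of these differences in the results on the enzymes was not tested, and in bulk RNA fewer cells of a type and less RNA per cell cannot be told apart.

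No enzyme of the 54 passed an adjusted p of 0.05 in the quasi-likelihood test of edgeR, and neither did any of the 21049 genes (0.0%). The smallest adjusted p was 0.524 among the 54 and 0.181 among all genes. An unadjusted p under 0.05 was found for 1526 of the 21049, and DESeq2 and limma-voom called 284 and 1222 genes at an adjusted p under 0.05. At an unadjusted p under 0.05, 4 of the 54 (7.41%) were higher in 2-DG, against 2.42% of all genes tested. These were Acss1, Acly, Setd1a and Kdm4a. None of the 54 was lower at that threshold, against 4.83% of all genes. In Acss1 and Kdm4a every 2-DG library lay above every control library, which makes 2 of 54 (3.70%) against 1.52% of all genes. The opposite order, every 2-DG library below every control library, was found in none of the 54 and in 1.41% of all genes. DESeq2 called Acss1 and Kdm4a higher at an adjusted p under 0.05 (0.38% of all genes were called higher), and limma-voom with quality weights called these and Setd1a (1.54% of all genes). Counts at the unadjusted threshold moved with single libraries: 2 of the 54 were higher without 2-DG 1 or without 2-DG 2, where 1.62% and 1.82% of all genes were. The number with every 2-DG library above every control was 8 without 2-DG 4, where the share of all genes rose to 4.62%. It was 4 without control 1, 2-DG 2 or 2-DG 3, with 2.21%, 2.07% and 3.05% of all genes.

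More of the 54 estimates were positive than negative, and the list as a whole was not tested. Of the 54 log2 fold changes (2-DG against control), 39 were above 0, with a median of 0.14, a lowest value of −0.56 and a highest of 1.29. The median over all genes tested was −0.01, and 49.2% of them were above 0. Scaling shifted the enzymes and all genes together. With upper-quartile scaling, 30 of the 54 were positive with a median of 0.05, beside 42.0% of all genes and a median of −0.09. With library size alone, 36 were positive with a median of 0.08, beside 44.1% of all genes and −0.07. A scaling factor acts on all genes of a library alike, so such factors could hardly move the gap between these medians. The median of the 54 minus that of all genes was 0.138 and 0.144 with these scalings and 0.145 with TMM. It ran from 0.118 without control 5 to 0.232 without 2-DG 4 with 1 library left out, and was 0.10 with the stricter filter, 0.238 with no filter and 0.258 with limma-voom. Within the control group alone, the median over the 54 of the log2 deviation from each gene's mean of the 9 libraries had an SD of 0.183 (n = 5). The median of the 54 itself was 0.08 without control 4 and 0.09 without control 5. By class, the median was 0.56 for acetyl-CoA supply (3 of 3 positive), 0.19 for acetyltransferases (8 of 10) and 0.16 for zinc-dependent deacetylases (7 of 11). It was 0.16 for lysine methyltransferases (13 of 15), 0.05 for lysine demethylases (5 of 9) and −0.04 for sirtuins (3 of 6). Single libraries moved these medians. That of the acetyltransferases was 0.10 without control 5 and that of the methyltransferases was 0.08 without control 5 and 0.25 without control 3. The median of the deacetylases was 0.10 without control 4, 0.26 without control 2 and 0.27 without 2-DG 4. The medians of the sirtuins and the demethylases were too near 0 to carry a direction. The demethylase median was −0.03 with upper-quartile scaling. The sirtuin median was −0.14 with that scaling (0 of 6 positive), −0.13 without control 4 and 0.06 with limma-voom.

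**Figure D1:**
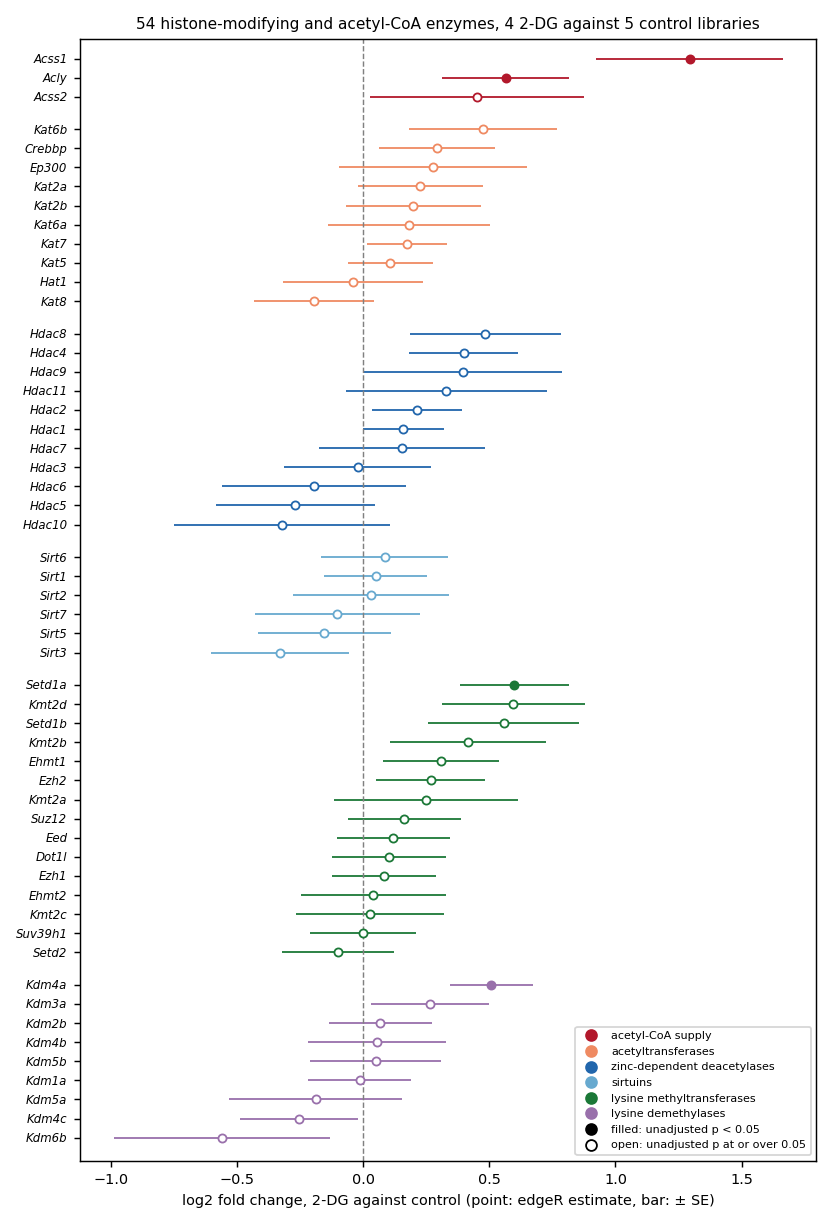
Log2 fold change of each of the 54 enzymes, 2-DG against control, by class (x axis, log2 scale; points are edgeR estimates, bars ± SE; filled points have an unadjusted p under 0.05). The 3 enzymes of acetyl-CoA supply lie right of 0, Acss1 farthest at 1.29, and Kdm6b lies farthest left at −0.56.

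Acetyl-CoA supply was the class with the highest median estimate, though Acly and Acss2 lay below the methyltransferases Setd1a and Kmt2d. Acss1 encodes the mitochondrial acetyl-CoA synthetase, which activates acetate inside mitochondria (GRCm38 chr2:150618105-150668500, minus strand). Its level was 0.538, 0.501, 0.916, 0.527 and 0.485 CPM in control 1 to 5 and 1.27, 1.804, 1.204 and 1.49 CPM in 2-DG 1 to 4. The groups did not overlap, and the lowest 2-DG library exceeded the highest control library, control 3. This gave a log2 fold change of 1.29 ± 0.37 (adjusted p = 0.524 by edgeR), where ± gives the SE of a log2 fold change and the SD of a CPM value or share. Acss1 was the least abundant of the 54, at 0.235 CPM per kilobase of exon over the 9 libraries, and rested on 7 to 65 counts per library. Over 18 alternative fits its log2 fold change ran from 1.17 to 1.48, with an unadjusted p under 0.05 in all 18 and an adjusted p from 0.0212 to 0.985. An antisense gene, E130215H24Rik, covers 2.74% of its exon bases and had at most 2.0 counts in any library.

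Acly encodes ATP-citrate lyase, which splits citrate into acetyl-CoA and oxaloacetate (GRCm38 chr11:100476353-100528000, minus strand). It was the most abundant of the 54 per length, at 42.8 CPM per kilobase of exon. Its level was 248, 179, 238, 139 and 127 CPM in control 1 to 5 and 285.5, 304, 281 and 233 CPM in 2-DG 1 to 4. The groups overlapped, since 2-DG 4 lay below control 1 and control 3, while the other 2-DG libraries lay above every control. The means ± SD were 186 ± 55.3 CPM in the control group and 276 ± 29.99 CPM in the 2-DG group. The log2 fold change was 0.56 ± 0.25 (adjusted p = 0.689 by edgeR). The unadjusted p was under 0.05 in 8 of 18 alternative fits. Acss2 encodes the acetyl-CoA synthetase of cytosol and nucleus. Its level was 33.4, 42.1, 29.6, 15.7 and 17 CPM in control 1 to 5 and 45.8, 39.2, 53.03 and 12.6 CPM in 2-DG 1 to 4. The lowest value of the 9 libraries was that of 2-DG 4 and the highest that of 2-DG 3, so the spread within the 2-DG group spanned the control group. In log2 units the fold change came to 0.45 ± 0.42 (adjusted p = 0.834 by edgeR), with 0.24 without 2-DG 3, 0.28 without control 4 and 0.74 without 2-DG 4.

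RefSeq promoters on GRCm38.p6 were matched for 45 of the 54 genes, in 63 promoters. The 250 bases before the start are printed for Acly and Kdm4a, which had an unadjusted p under 0.05 and have no annotated exon in that window. In Acss1 and Setd1a exons of the gene itself cover 171 and 209 of those bases. The windows are chr11:100528001-100528250 for Acly and chr4:118180044-118180293 for Kdm4a, both on the minus strand and written 5′ to 3′. Capitals mark matches to 2 of the motifs searched, the GC box GGGCGG and the CCAAT box CCAAT, on either strand.
Acly: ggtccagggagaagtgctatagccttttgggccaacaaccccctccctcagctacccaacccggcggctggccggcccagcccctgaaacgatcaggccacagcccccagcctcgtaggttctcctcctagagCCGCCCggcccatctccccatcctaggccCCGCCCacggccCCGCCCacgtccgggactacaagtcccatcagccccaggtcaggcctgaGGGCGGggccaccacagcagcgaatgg
Kdm4a: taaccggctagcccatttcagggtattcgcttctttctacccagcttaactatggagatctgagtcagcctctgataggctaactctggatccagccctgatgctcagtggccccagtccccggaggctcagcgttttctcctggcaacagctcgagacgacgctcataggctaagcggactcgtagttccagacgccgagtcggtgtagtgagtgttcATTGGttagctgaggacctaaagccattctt
The Acly window held 4 GC boxes, 3 of them as the reverse complement, and no CCAAT box. The Kdm4a window held 1 CCAAT box as its reverse complement, 31 to 27 bases before the start, and no GC box. The GC box was found in 40 of the 63 promoters of these enzymes (63.5%) and in 32.7% of 32851 promoters of all genes, and CCAAT in 36.5% and 33.8%. The promoters of the enzymes had a median of 62.4% G and C, and all promoters 52.4%. The E-box CACGTG was found in 9.52% of the 63 and 6.02% of all and the cAMP response element TGACGTCA in 0.0% and 1.55%. Neither printed window held either of these.

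**Figure D2:**
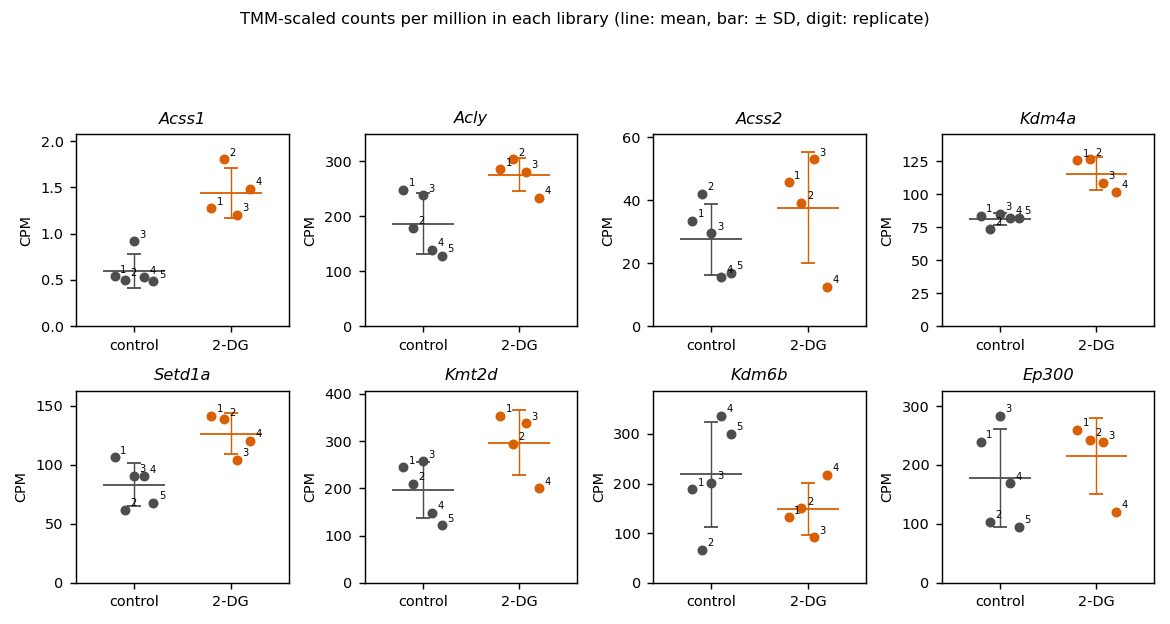
TMM-scaled CPM of 8 enzymes in each library (y axes, linear and starting at 0; points are libraries with their replicate digit, lines the mean, bars ± SD). The groups of Acss1 and Kdm4a do not overlap, Setd1a overlaps in 1 pair of libraries (104 CPM in 2-DG 3, 106 CPM in control 1), and Kdm6b is the only 1 of the 8 whose 2-DG mean is lower.

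No acetyltransferase had an unadjusted p under 0.05. Ep300 and Crebbp encode p300 and CBP, the paired coactivators that acetylate histones at enhancers. Ep300 stood at 239, 103, 283, 169 and 95.02 CPM in control 1 to 5 and 260.1, 242, 239 and 120.1 CPM in 2-DG 1 to 4. Control 2, control 5 and 2-DG 4 were low, and all 2-DG libraries lay within the range of the controls. Its log2 fold change was 0.28 ± 0.37 (adjusted p = 0.88 by edgeR). With 1 library left out it ran from 0.11 without control 5 to 0.51 without control 3, with 0.13 without control 2, 0.18 without 2-DG 1 and 0.48 without 2-DG 4. Crebbp stood at 103, 63, 103, 114 and 65.3 CPM in control 1 to 5 and 124, 114, 105 and 96.8 CPM in 2-DG 1 to 4. Its 2-DG libraries all exceeded the control mean, but 2 of them lay below control 4, and the log2 fold change was 0.29 ± 0.23 (adjusted p = 0.811 by edgeR). Without control 2 or without control 5 it was 0.19.

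The MYST acetyltransferases share a catalytic domain and work in complexes with BRPF or related scaffolds. Kat6b (MORF) stood at 101, 43.3, 80.5, 63.9 and 44.5 CPM in control 1 to 5 and 105, 97.6, 105 and 62.1 CPM in 2-DG 1 to 4. The 2-DG group overlapped the controls through 2-DG 2, which lay below control 1, and 2-DG 4, and the log2 fold change was 0.47 ± 0.29 (adjusted p = 0.768 by edgeR). Kat7 (HBO1), which acetylates histones at replication origins and gene bodies, stood at 102, 87.6, 94.7, 95.7 and 89.6 CPM in control 1 to 5 and 112, 104, 97.9 and 109.5 CPM in 2-DG 1 to 4. Of its 2-DG libraries, 3 exceeded every control library and 2-DG 3 lay below control 1. Its log2 fold change was 0.17 ± 0.16 (adjusted p = 0.832 by edgeR). Kat5 (TIP60), the most abundant acetyltransferase per length at 21.6 CPM per kilobase, stood at 69.1, 75.8, 73.1, 75.4 and 73.05 CPM in control 1 to 5 and 87, 74.2, 65.9 and 88.5 CPM in 2-DG 1 to 4. The controls lay close together, and 2-DG 2 and 2-DG 3 lay among or below them. Its log2 fold change was 0.11 ± 0.17 (adjusted p = 0.898 by edgeR), with 0.046 without 2-DG 4, 0.065 without 2-DG 1 and 0.19 without 2-DG 3. The lowest value of the class was that of Kat8 (MOF), at −0.19 ± 0.24.

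Among the zinc-dependent deacetylases, Hdac1 and Hdac2 form the catalytic core of the SIN3, NuRD and CoREST complexes and Hdac3 that of the NCoR complexes. Hdac1 stood at 56.1, 63.8, 62.99, 55.9 and 63.1 CPM in control 1 to 5 and 61.03, 70.9, 66.4 and 71.2 CPM in 2-DG 1 to 4. Of its 2-DG libraries, 3 lay above every control and 2-DG 1 lay among the controls. The log2 fold change was 0.16 ± 0.16 (adjusted p = 0.841 by edgeR), and 0.098 without control 4. Hdac2 stood at 97.6, 85.98, 92, 92.9 and 70.9 CPM in control 1 to 5 and 109.5, 115, 92.5 and 90.4 CPM in 2-DG 1 to 4. All 2-DG libraries exceeded the control mean, but 2-DG 3 and 2-DG 4 lay below control 1. It had a log2 fold change of 0.21 ± 0.18 (adjusted p = 0.821 by edgeR), and 0.13 without control 5. Hdac3 stood at 84.2, 147, 67.9, 69.9 and 58.7 CPM in control 1 to 5 and 96.3, 93.8, 86.7 and 59.7 CPM in 2-DG 1 to 4. Control 2 lay far above the other 8 libraries. 2-DG against control gave a log2 fold change of −0.02 ± 0.29 (adjusted p = 0.99 by edgeR), and without control 2 it was 0.26.

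Hdac8, an X-linked deacetylase that acts on cohesin, was scarce, at 1.92 CPM per kilobase. It stood at 4.42, 9.45, 7.71, 7.88 and 9.92 CPM in control 1 to 5 and 10.7, 8.4, 11.5 and 13.4 CPM in 2-DG 1 to 4. Only 2-DG 2 overlapped the controls, and the log2 fold change was 0.48 ± 0.30 (adjusted p = 0.768 by edgeR). The class IIa enzymes move between nucleus and cytoplasm and bind MEF2 factors. Hdac4, which had the smallest p of the 11 deacetylases, stood at 39.3, 21.98, 40.6, 38.7 and 33.2 CPM in control 1 to 5 and 48.04, 39.6, 48.3 and 47.2 CPM in 2-DG 1 to 4. Here 2-DG 2 lay below control 3, and the other 2-DG libraries lay above all controls. The log2 fold change was 0.40 ± 0.22 (adjusted p = 0.739 by edgeR), and 0.084 from summed transcript counts. Its leading transcript Hdac4-202 had −0.02 ± 0.25. Antisense exons of Gm26720 cover 22.4% of its exon bases. Hdac5, the most abundant deacetylase per length (26.1 CPM per kilobase), stood at 212, 451.5, 193, 209.5 and 174.5 CPM in control 1 to 5 and 263, 219, 171 and 170.4 CPM in 2-DG 1 to 4. Its control mean rested on control 2, and the log2 fold change was −0.27 ± 0.32 (adjusted p = 0.86 by edgeR) with control 2 and 0.06 without it. The remaining 5 enzymes of the class had unadjusted p-values of 0.338 to 0.649.

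In the main fit the sirtuins had the class median nearest 0 (−0.04). With upper-quartile scaling it was −0.14, and that of the demethylases was nearer 0. Sirt3, a mitochondrial deacetylase, stood at 32.8, 59.1, 25.8, 29.99 and 33.8 CPM in control 1 to 5 and 25.9, 24.9, 26.9 and 37.8 CPM in 2-DG 1 to 4. Control 2 was the highest of the controls and 2-DG 4 the highest of the 2-DG libraries. This gave a log2 fold change of −0.33 ± 0.27 (adjusted p = 0.82 by edgeR), and of −0.086 without control 2. Sirt5, which removes succinyl and malonyl groups in mitochondria, stood at 22.5, 16.3, 22.1, 18.6 and 15.1 CPM in control 1 to 5 and 21.6, 19.9, 15.9 and 10.7 CPM in 2-DG 1 to 4. The lowest value was that of 2-DG 4 and the groups overlapped, with a log2 fold change of −0.15 ± 0.26 (adjusted p = 0.905 by edgeR). Sirt6, a chromatin-bound deacetylase that represses glycolytic genes, stood at 13.2, 18.5, 10.5, 11.9 and 15.6 CPM in control 1 to 5 and 15.96, 18.04, 13.3 and 11.9 CPM in 2-DG 1 to 4. All its 2-DG libraries lay within the range of the controls, with a log2 fold change of 0.08 ± 0.25 (adjusted p = 0.949 by edgeR). Sirt2, a largely cytoplasmic tubulin deacetylase, was the most abundant sirtuin per length at 15.8 CPM per kilobase. It stood at 54.5, 131, 50.2, 65.8 and 92.2 CPM in control 1 to 5 and 68.2, 63.2, 85.8 and 104 CPM in 2-DG 1 to 4. The 2-DG libraries lay within the range of the controls, and the log2 fold change was 0.03 ± 0.31 (adjusted p = 0.987 by edgeR). The values of Sirt5, Sirt6 and Sirt2 changed sign under other settings, so they carry no direction. Sirt1, the nuclear deacetylase of the family, had a log2 fold change of 0.05 ± 0.20 and Sirt7 of −0.10 ± 0.33.

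Of the lysine methyltransferases, the 4 highest estimates were those of Setd1a, Kmt2d, Setd1b and Kmt2b, catalytic subunits of COMPASS complexes, which methylate the histone H3 lysine found at active promoters and enhancers. Setd1a is the catalytic subunit of a SET1 complex, which trimethylates this lysine at promoters (GRCm38 chr7:127776670-127800122, plus strand). It stood at 106, 61.6, 90.8, 90.2 and 67.6 CPM in control 1 to 5 and 141, 139, 104 and 120.5 CPM in 2-DG 1 to 4. All 2-DG libraries except 2-DG 3 lay above every control, and 2-DG 3 lay just below control 1. The means ± SD were 83.3 ± 18.3 CPM in the control group and 126.2 ± 17.3 CPM in the 2-DG group. The log2 fold change was 0.60 ± 0.22 (adjusted p = 0.608 by edgeR). The unadjusted p was under 0.05 in 14 of 18 alternative fits. A same-strand gene model, Gm49388, covers 51.8% of the exon bases of Setd1a and had counts in control 5 (41.9), 2-DG 2 (18.0) and 2-DG 4 (8.7) only. The antisense gene 9430064I24Rik covers 0.427% and had 20.4 to 125.5 counts per library, beside 861 to 5624 counts for Setd1a.

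Setd1b, the paralogue of Setd1a, stood at 51.03, 26.4, 40.6, 33.3 and 19.9 CPM in control 1 to 5 and 63.6, 52.3, 52.97 and 32.7 CPM in 2-DG 1 to 4. Here 2-DG 4 lay within the controls, and the log2 fold change was 0.56 ± 0.30 (adjusted p = 0.739 by edgeR). Kmt2d (MLL4), the main enhancer monomethyltransferase, stood at 244, 210.2, 257, 148 and 121 CPM in control 1 to 5 and 353, 295, 337 and 200.1 CPM in 2-DG 1 to 4. Again 3 of the 2-DG libraries lay above every control and 2-DG 4 lay among them. In log2 units the fold change came to 0.59 ± 0.28 (adjusted p = 0.704 by edgeR). Kmt2a (MLL1), the most abundant methyltransferase per length at 23.8 CPM per kilobase, stood at 498.5, 339, 489, 322 and 186 CPM in control 1 to 5 and 478, 500.1, 559.8 and 204 CPM in 2-DG 1 to 4. Control 5 and 2-DG 4 were the lowest of their groups by far, and the log2 fold change was 0.25 ± 0.37 (adjusted p = 0.891 by edgeR). It was 0.07 without control 5, 0.11 without 2-DG 3, 0.38 without control 1 and 0.48 without 2-DG 4. Kmt2b and Kmt2c had 0.42 ± 0.31 and 0.02 ± 0.29. Of these 6 COMPASS enzymes, Setd1a alone had an unadjusted p under 0.05.

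Ezh2 is the catalytic subunit of polycomb repressive complex PRC2, which trimethylates a histone H3 lysine at silenced genes, and Eed and Suz12 are its core partners. Ezh2 stood at 27.8, 33.9, 32.8, 27.96 and 29.9 CPM in control 1 to 5 and 44.4, 45.5, 27.6 and 29.3 CPM in 2-DG 1 to 4. In the 2-DG group 2-DG 1 and 2-DG 2 lay above all controls, while 2-DG 3 was the lowest of the 9 libraries. The log2 fold change was 0.27 ± 0.22 (adjusted p = 0.817 by edgeR), with 0.15 without 2-DG 2 and 0.17 without 2-DG 1. Eed, Suz12 and Ezh1, the paralogue of Ezh2 in non-dividing cells, had 0.12 ± 0.22, 0.16 ± 0.22 and 0.08 ± 0.21, with unadjusted p-values of 0.484 to 0.699. The enzymes that methylate a lysine of silent chromatin, Ehmt1, Ehmt2 and Suv39h1, had 0.31 ± 0.23, 0.04 ± 0.29 and 0.00 ± 0.21. Setd2, which marks gene bodies, had −0.10 ± 0.22, and Dot1l 0.10 ± 0.23.

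Kdm4a (JMJD2A), a 2-oxoglutarate-dependent demethylase of di- and trimethylated histone H3, was the second gene whose groups did not overlap (GRCm38 chr4:118136957-118180043, minus strand). It stood at 83.7, 73.8, 85.1, 81.8 and 81.9 CPM in control 1 to 5 and 125.7, 126.3, 108 and 102 CPM in 2-DG 1 to 4. The controls lay close together, and the lowest 2-DG library, 2-DG 4, exceeded the highest control library, control 3. With library size in place of TMM, 2-DG 4 fell below controls 1 and 3. The means ± SD were 81.3 ± 4.39 CPM in the control group and 115.5 ± 12.4 CPM in the 2-DG group. 2-DG against control gave a log2 fold change of 0.51 ± 0.17 (adjusted p = 0.563 by edgeR). Over 18 alternative fits it ran from 0.43 to 0.58, with an unadjusted p under 0.05 in all 18 and an adjusted p from 0.0172 to 0.987. No annotated exon of another gene overlaps its exons. Its paralogues Kdm4b and Kdm4c had 0.05 ± 0.27 and −0.26 ± 0.23.

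Kdm6b (JMJD3), which removes the polycomb methyl mark, had the lowest estimate of the 54 and was the most abundant demethylase per length (26.9 CPM per kilobase). It stood at 189, 66.2, 201.5, 336 and 299.9 CPM in control 1 to 5 and 132, 150, 91.8 and 217.5 CPM in 2-DG 1 to 4. Control 2 was the lowest of the 9 libraries, and the other control libraries exceeded 3 of the 4 2-DG libraries. The log2 fold change was −0.56 ± 0.43 (adjusted p = 0.802 by edgeR). Without control 2 it was −0.80, with an unadjusted p under 0.05 and an adjusted p = 0.455 by edgeR. Kdm3a, a demethylase of mono- and dimethylated histone H3 that hypoxia induces in many cells, stood at 89.95, 128, 132, 93.9 and 65.9 CPM in control 1 to 5 and 122, 122.5, 139 and 106 CPM in 2-DG 1 to 4. All 2-DG libraries exceeded the control mean, and only 2-DG 3 exceeded every control. Its log2 fold change was 0.26 ± 0.23 (adjusted p = 0.825 by edgeR), and 0.13 without control 5. The other demethylases, Kdm1a, Kdm2b, Kdm5a and Kdm5b, had values from −0.19 to 0.07.

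**Figure D3:**
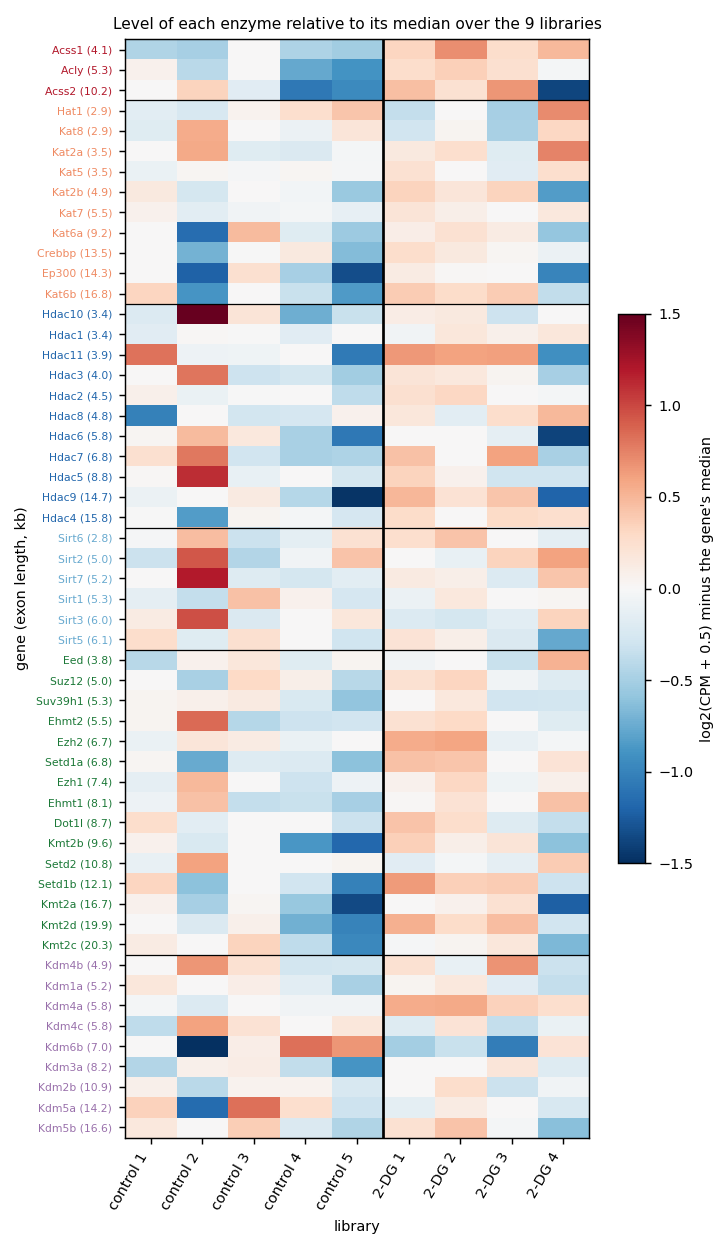
Level of each enzyme in each library as log2(CPM + 0.5) minus the gene's median over the 9 libraries (colour; rows by class and, within a class, by exon length in kb; columns are libraries). Control 5 and 2-DG 4 are blue in several long genes, such as Kmt2a, Ep300 and Acss2, and control 2 is red in Hdac10, Hdac5 and Sirt7.

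The same libraries often held the low values. Control 5 was the lowest control in 22 of the 54 enzymes. 2-DG 4 was the lowest 2-DG library in 30 and the highest in 13. Such counts were not made over all genes. The low values went with exon length, all annotated exons of a gene merged. Control 5 was lowest in 12 of the 20 enzymes with over 8 kb and in 10 of the 34 shorter ones. For 2-DG 4 these were 16 and 14, and in the shorter ones 2-DG 3 was lowest in 15. The 20 enzymes with over 8 kb of exon had a median log2 deviation from their group's median of −0.54 in control 5 and −0.67 in 2-DG 4. The 34 shorter ones had −0.03 and −0.08. Over the tested genes of at least 1 CPM on average, the 2756 of over 8 kb had −0.25 and −0.30 in these libraries, and the shorter ones 0.00 and 0.09. Control 2 was also low in the long ones of all genes (−0.19, against 0.00 in the shorter ones), but had a median of 0.00 over the 20 long enzymes. Control 5 and 2-DG 4 were also the libraries with the lowest sums of bipolar cell markers and the highest of vessel markers, and the part of cell content or RNA quality in the long genes was not tested. The coefficient of variation within a group had a median of 27.3% over the 54 in control and 20.4% in 2-DG, against 37.0% and 32.9% over genes of at least 1 CPM in 4 libraries.

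**Figure D4:**
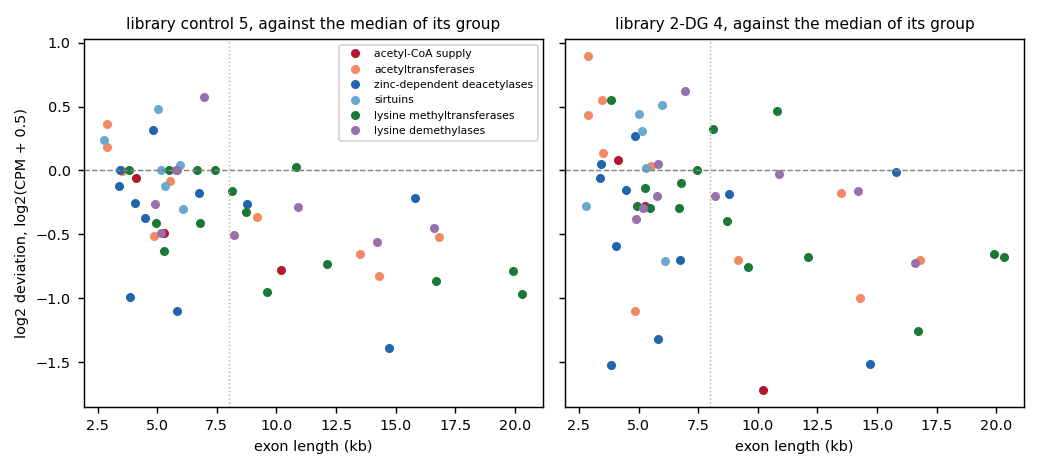
Deviation of each enzyme in control 5 (left) and 2-DG 4 (right) from the median of its own group, in log2(CPM + 0.5), against exon length in kb (points are genes, coloured by class; dotted line at 8 kb). The points over 8 kb have medians of −0.54 and −0.67, and the shorter ones scatter around 0.

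The transcript table held 464 transcripts of these genes, of which 328 passed the filter. At an unadjusted p under 0.05, 6 were higher in 2-DG (1.83%, against 1.17% of the 62900 transcripts tested) and 1 was lower (0.305%, against 2.28%). No transcript of these genes had an adjusted p under 1.00. The leading transcript of each gene, the one with the most counts, had a positive log2 fold change in 36 of 54. Acss1-201, the leading transcript of Acss1, had a log2 fold change of 1.34 ± 0.51, and Setd1a-202 one of 0.51 ± 0.21. The leading Kdm4a-204 did not reach this threshold (0.72 ± 0.49), with its share of the gene's counts at 61.8% ± 29.7 in control and 79.6% ± 12.6 in 2-DG. The third leading transcript under the threshold was Kat6b-204. It held 57.7% ± 19.0 of the gene in control and 25.9% ± 14.1 in 2-DG and was lower in 2-DG, at −0.92 ± 0.32 on the log2 scale. Kat2a-201 held 23.5% ± 12.3 and 43.5% ± 12.3, with 1.25 ± 0.51. Sirt1-201 stood at 15.93, 8.624, 13.35, 14.65 and 6.498 CPM in control and at 19.03, 22.35, 27.44 and 22.75 CPM in 2-DG, without overlap (log2 fold change 0.95 ± 0.32). The other 2 were the noncoding Kdm1a-206 and Kdm3a-204. The count of 7 in either direction, beside 3.45% of all transcripts, was 13 without 2-DG 4, beside 7.55%. It was 4 without control 4, 2-DG 1 or 2-DG 2, beside 2.13%, 2.25% and 2.52%.

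Other genes of the same pathways were read from 6 lists of 186 genes, all of which passed the filter. None passed an adjusted p of 0.05. At an unadjusted p under 0.05, 11 were higher and 1 was lower in 2-DG, beside 2.42% and 4.83% over the whole table. Their log2 fold changes had a median of 0.21, against −0.01 over all genes. Of the 27 subunits of acetyltransferase complexes 1 was higher, Brpf3, the scaffold of the HBO1 complex. Brpf3 stood at 43.4, 42.2, 38.1, 37.9 and 37.9 CPM in control 1 to 5 and 71.2, 60.9, 51.4 and 67.1 CPM in 2-DG 1 to 4, without overlap, with a log2 fold change of 0.65 ± 0.17 (adjusted p = 0.524 by edgeR). Of the 25 subunits of deacetylase complexes Sin3b and Ncor1 were higher, the scaffolds of the SIN3B and NCoR complexes. Their log2 fold changes were 0.48 ± 0.18 and 0.48 ± 0.22.

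Among 32 COMPASS and polycomb subunits, Hcfc1, a cofactor of SET1 complexes, was higher at 0.56 ± 0.21, without overlap. Cbx7, a polycomb reader, was lower at −0.64 ± 0.27, with overlap. Among 42 other modifying enzymes 3 were higher. The 2 with the smallest p were Ncoa3, a nuclear receptor coactivator (0.52 ± 0.23), and Prmt2, an arginine methyltransferase (0.55 ± 0.24). Among 30 readers of acetylated histones only Brwd3 was higher (0.72 ± 0.32). The last list held 30 genes, of cofactor supply and 2 alanyl-tRNA synthetases, and 3 of them were higher. Suclg2, the GDP-forming subunit of succinyl-CoA ligase, stood at 13.1, 8.59, 15.04, 16.1 and 16.9 CPM in control 1 to 5 and 19.9, 26.4, 24.2 and 22.7 CPM in 2-DG 1 to 4, without overlap (0.74 ± 0.24, adjusted p = 0.57 by edgeR). The other 2 were the alanyl-tRNA synthetases, which charge tRNA and supply no cofactor, the mitochondrial Aars2 (0.65 ± 0.28) and the cytosolic Aars (0.63 ± 0.28).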

How the data were processed

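RNA was sequenced from 9 retinal explant libraries (5 control, 4 2-DG), made from 4 ng of total RNA with a stranded kit and 13 cycles of PCR, in 1 batch per the labels. Submitters' processing notes name kallisto and GRCm38, with versions and strand setting not given in the sources used here. The authors deposited estimated counts per gene and per transcript, which were rounded to whole numbers. Their CPM table, scaled by library size, and their table of fold changes and p-values were not used. Every column of the count tables was matched to a sample by its name.

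Genes were filtered with filterByExpr, scaled by TMM and tested with the quasi-likelihood fit of edgeR 4.0.16 in R 4.3.3, with group as the only term and Benjamini-Hochberg adjustment over all 21049 genes or 62900 transcripts. CPM values are TMM-scaled. The SE is the log2 fold change over the root of F. DESeq2 1.42.0, limma 3.58.1 (voom), other scalings and filters, a replicate block and each library left out in turn were alternatives. The scripts were tested on simulated data. Symbols, exon lengths and overlaps came from GENCODE M21, and promoters from RefSeq on GRCm38.p6.

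Values in every library or group means were given for genes with an unadjusted p under 0.05, the 3 with the smallest p and the 1 with the highest CPM per kilobase in each class, and Acly, Acss2, Ep300, Hdac1, Hdac3 and Ezh2. For other pathway lists, the 1 or 2 genes with the smallest p were named. The 54 genes, the lists and the tests were chosen with earlier results of these data known. Same-numbered libraries of the groups correlated at −0.155 to 0.451 in their deviations, and differently numbered ones at −0.689 to 0.717. These values cannot show whether the numbers mark pairs. The labels do not say, so the numbers were not taken as pairs in the main fit.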

Additional observations from a re-analysis of the deposited data

Results flagged for a closer look

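A library stood apart from the rest of its group in 7 of the 52 groups examined (26 named enzymes, 2 groups each). The rule was Dixon's test for an outlier, at a nominal 1 in 20 per group. The enzymes share the same libraries, so the count cannot be set against that rate. Among the controls, control 2 was high in Hdac5 (452 CPM, the others 175 to 212), Sirt3 (59.1 CPM, the others 25.8 to 33.8) and Hdac3 (147 CPM, the others 58.7 to 84.2). Control 2 was also the library with the highest sum of rod markers, and the part of this in the values was not tested. Control 3 was high in Acss1 (0.916 CPM, the others 0.485 to 0.538). In the 2-DG group, 2-DG 4 was high in Sirt3 (37.8 CPM, the others 24.9 to 26.9) and low in Ep300 (120.0 CPM, the others 239 to 260.0), and 2-DG 2 was low in Hdac4 (39.6 CPM, the others 47.2 to 48.3).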

How the results depend on the processing

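Of 468 alternative values for the 26 named enzymes, 444 kept their direction and their side of the threshold, 5 passed an adjusted p of 0.05 with the same direction and 19 changed sign. No named enzyme passed that threshold in the main fit, so none could fall back over it, and the 444 are no measure of stability. Those past the threshold were Acss1 and Kdm4a with DESeq2 (1.34 and 0.51) and Acss1, Kdm4a and Setd1a with limma-voom (1.31, 0.58 and 0.62). The sign changes fell in 5 enzymes. With limma-voom, Hdac5 had 0.17, Sirt5 0.0057 and Hdac3 0.35. Hdac3 had 0.016 with no filter. With upper-quartile scaling Sirt6 had −0.010 and Sirt2 −0.071, and Sirt2 had −0.021 with library size only and −0.011 with the stricter filter. With 1 library left out, values ran from −0.40 to 0.058 in Hdac5, −0.28 to 0.013 in Sirt5, −0.022 to 0.20 in Sirt6, −0.12 to 0.29 in Sirt2 and −0.14 to 0.26 in Hdac3. Moves of over 1.5 times without a change of sign included Acss2 (0.99) and Ezh2 (0.52) with limma-voom, Kat5 (0.020), Hdac1 (0.073), Kat7 (0.092), Hdac2 (0.13) and Ezh2 (0.18) with upper-quartile scaling, and Kat6b (0.27), Kdm3a (0.093), Kmt2a (0.16) and Hdac5 (−0.14) with summed transcripts. The causes of these changes were not tested, and the depth of 7 to 65 counts limits Acss1.

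Genes past an adjusted p of 0.05 numbered 0 with edgeR, 284 with DESeq2, 1222 with limma-voom and 0 to 16 with 1 library left out (16 without control 2, 2 without 2-DG 4). Genes at an unadjusted p under 0.05 numbered 1526, of which 509 were higher and 1017 lower. The split was 321 and 1278 with upper-quartile scaling, 293 and 1376 without TMM (library size only), and 682 and 669 with the replicate block. The number was 5474 with limma-voom, 2642 with no filter and 921 to 2721 with 1 library left out, the lowest without control 4 and the highest without 2-DG 4. Enzymes of the 54 past an adjusted p of 0.05 numbered 2 with DESeq2, 3 with limma-voom and 0 in every other fit, each library left out included. Enzymes higher at an unadjusted p under 0.05 numbered 2 with library size only (1.39% of all genes were), 17 with limma-voom (10.6% of all genes were) and 2 to 6 with 1 library left out (1.35% to 3.38% of all genes were). Enzymes lower numbered 1 with limma-voom (15.4% of all genes) and 0 to 1 with 1 library left out (Kdm6b without control 2, where 6.07% of all genes were lower). Enzymes without overlap were all higher in 2-DG and numbered 1 with library size only, where Kdm4a overlapped (0.86% of all genes), and 2 to 8 with 1 library left out (1.64% to 4.62%). Their transcripts at an unadjusted p under 0.05 numbered 4 to 13 with 1 library left out (2.13% to 7.55% of all transcripts). The median log2 fold change of the 54 was 0.05 to 0.26 over the alternatives.

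With the replicate number of the labels as a replicate block, 2 enzymes (Acss1 and Kdm4a) were higher at an unadjusted p under 0.05, and the 54 had a median of 0.08. Over all genes 1351 had such a p in either direction, and 3.24% were higher. The block moved the log2 fold change of Kdm6b to −0.30, Kmt2a to 0.011, Acss2 to 0.22, Ep300 to 0.15, Hdac2 to 0.14 and Kdm3a to 0.16. The labels do not say whether same-numbered libraries were paired.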
